A study of Mus musculus with 6 samples.

Results

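The genes described here are 10 genes of the G1 phase machinery, the D-type cyclins Ccnd2 and Ccnd3, the E-type cyclins Ccne1 and Ccne2, the kinases Cdk4, Cdk6 and Cdk2, and the inhibitors Cdkn1a (p21), Cdkn1b (p27) and Cdkn2c (p18). They were chosen by symbol from 26128 genes listed by Ensembl identifier, all 10 were found, and all 10 were among the 14671 genes left after the filter on low counts. RNA was sequenced from double negative T (DNT) cells of adult C57BL/6 mice, in 3 libraries without IL-33 (Control) and 3 libraries with IL-33 at 50 ng/ml. According to the methods, CD4+CD25- T cells of spleens and lymph nodes had been turned into DNT cells in culture by DBA/2 mature dendritic cells and IL-2, and the labels give the sort as CD3+NK1.1-CD4-CD8-; GEO lists spleen as the tissue. In both groups they then received anti-CD3/CD28 beads for 48 h, so every Control library is from activated cells too. Nothing in the sources used here says whether the libraries of a group came from separate mice or cultures, so the p values measure the spread between these libraries, which may be technical.

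In G1 phase, D-type cyclins bind CDK4 or CDK6 and E-type cyclins bind CDK2, and these kinases phosphorylate the retinoblastoma family of pocket proteins, which releases the E2F transcription factors. E2F then drives the genes of DNA replication, among them the E-type cyclins themselves, and the cell enters S phase. The Cip/Kip inhibitors p21 and p27 block cyclin E-CDK2, while the INK4 inhibitors, p18 among them, bind CDK4 and CDK6. In T cells, signals from the antigen receptor and from growth cytokines raise D-type cyclins and lower p27, which sets how fast a resting cell begins to divide.

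With IL-33 both E-type cyclins, Cdk2, Cdk4 and Cdkn2c were lower, and Cdkn1a, Cdkn1b and Ccnd2 were higher, while Ccnd3 and Cdk6 did not pass the test. The fall was greatest in Ccne2, by 34.9%, and the rise was greatest in Cdkn1a, by 31.7%. Thus 3 of the 10 genes were higher and 5 were lower with an adjusted p under 0.05 (edgeR's quasi-likelihood test, Benjamini-Hochberg adjustment over all genes tested). Of all genes tested, 13.6% were called higher and 13.9% lower. In the 8 called genes the 3 IL-33 libraries lay all above or all below the 3 Control libraries, a separation seen in 38.9% of all genes tested. Only Ccne2 also reached the study's limit of a 1.5-fold change, and 4.87% of all genes tested passed both limits. The median log2 fold change was -0.12 over the 10 genes and -0.00063 over all genes tested. Levels are given as CPM, counts brought to a common library size with TMM factors, and in RNA from a whole culture fewer cells of a type and less RNA per cell cannot be told apart.

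**Figure D1:**
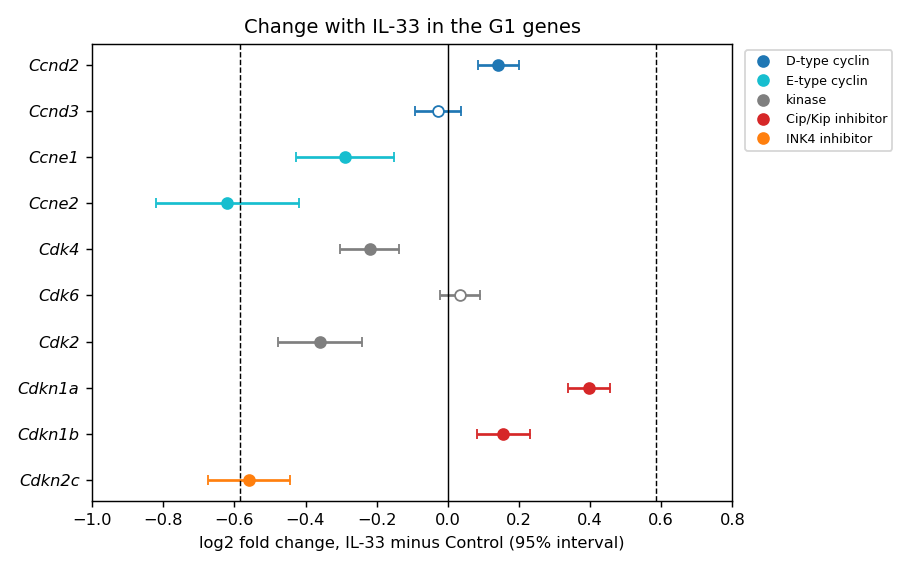
The log2 fold change of each gene, IL-33 minus Control, with its 95% interval from edgeR, colored by role. Filled points have an adjusted p under 0.05 and dashed lines mark a 1.5-fold change in either direction, which only the point of Ccne2 (-0.62) passes.

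The libraries held 20256342 to 22336050 counts, and 3 counts corresponded to 0.134 to 0.148 CPM, a limit that covers counting error only. The T cell genes Cd3e and Cd3d were at 286 to 314 and 415 to 455 CPM over the 6 libraries, and Cd4 was at 0.225 to 1.08 CPM. Cd8a, whose protein the sort had excluded, was at 535 to 561 CPM in Control and at 393 to 410 CPM with IL-33, and Klrb1c, the gene of NK1.1, was at 30.5 to 35.0 and 24.5 to 26.8 CPM. The RNA of these genes thus went against the sort, and both were lower with IL-33 (adjusted p = 2.4e-26 and 7.1e-06 in edgeR), while Cd8b1 was higher (9.68 ± 1.65 and 16.3 ± 2.07 CPM, n = 3 per group, adjusted p = 6.2e-08) and Ncr1 had at most 5 counts. Of 8 dendritic and myeloid markers 6 were listed, with a summed level of 67.2 to 71.2 CPM in Control and 41.6 to 47.3 CPM with IL-33, most of it from Itgax (54.6 ± 2.07 and 26.0 ± 1.59 CPM, n = 3 per group), while Flt3 had at most 2, Lyz2 at most 8 and Csf1r at most 13 counts in a library. In the same list Itgam went the other way, from 2.61 ± 0.0742 to 4.83 ± 0.844 CPM (adjusted p = 0.000128 in edgeR), and Xcr1 was at 11.5 ± 1.02 and 12.4 ± 0.969 CPM (adjusted p = 0.521, n = 3 per group). Of 5 mast cell and basophil markers 4 were listed, at 14.8 to 20.3 and 10.2 to 13.6 CPM in sum, most of it from Cpa3 and Mcpt8. Cpa3 was at 10.9 ± 2.04 and 7.10 ± 0.615 CPM (n = 3 per group, adjusted p = 8.3e-05 in edgeR). The groups of Mcpt8 overlapped, at 5.81 ± 0.714 and 4.32 ± 1.40 CPM (n = 3 per group, adjusted p = 0.0559 in edgeR). Gata2 had 1, 14 and 5 counts in Control and 0 in all IL-33 libraries, and was not tested. The part of such cells in the results was not tested.

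Promoter sequence was searched because E-type cyclins and other G1 genes are classic targets of E2F. Of the 3 genes of activating E2Fs, E2f1 and E2f2 were lower with IL-33. E2f3 did not pass (log2 fold change -0.17, adjusted p = 0.0652 in edgeR, and 0.0259 without Control replicate 3). Whether E2F changed the genes described here was not tested. RefSeq windows on GRCm38.p6, from 250 bases before to 50 bases after each start site, were available for 8 of the 10 genes, in 11 windows. They were searched on both strands for 4 forms of the E2F motif (TTCCCGC, then TTGGCGC, then TTCGCGC, and last TTGCCGC), of which no pair can overlap on the same strand, for the FOXO letters GTAAACA and for the NF-κB letters GGGNNTTCC. The E2F letters, shortened from an 8-letter form after a first search, occurred in 9.57% of 32851 windows over all genes. No window of Ccne1 or Cdk4, both lower with IL-33, held them. Neither did any window of Cdkn1a or Cdkn1b, both higher, or of Ccnd3 or Cdk6. Of the 11 windows, 1 of Cdk2 and 1 of Cdkn2c held them, and both of these genes were lower with IL-33. The stretches before the start sites that hold these matches are shown, as the only such matches among the 8 genes, in the 5′ to 3′ direction of the gene with the matched letters in capitals. The first stretch lies at chr10:128705052-128705211 on the minus strand, wholly before the start site of Cdk2, and its matches begin 140 and 10 bases before that site. The second lies at chr4:109666765-109666791 on the minus strand, with its match 25 bases before a RefSeq start site of Cdkn2c and inside an exon of the GENCODE annotation.
Cdk2: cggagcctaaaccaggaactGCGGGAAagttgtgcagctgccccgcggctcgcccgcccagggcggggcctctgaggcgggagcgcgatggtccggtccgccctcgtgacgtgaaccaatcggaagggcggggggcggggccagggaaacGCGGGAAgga
Cdkn2c: gggcccggccTTCCCGCtcccgcggcg
Both Cdk2 matches read as TTCCCGC on the other strand, and a further match, TTGCCGC on the other strand, begins 40 bases after its start site. The FOXO letters, found in 3.65% of all windows, occurred in 1 gene, Ccnd3, and the NF-κB letters, found in 5.82%, in 0 of the 8. A match is a description of letters and not a sign of binding, and Ccnd2 and Ccne2 had no window in the table.

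Cyclin D2 and cyclin D3 are the main D-type cyclins of lymphocytes, and of their genes Ccnd2 passed the test and Ccnd3 did not. Ccnd2 (ENSMUSG00000000184, chromosome 6 from 127125162 to 127152193, minus strand, GRCm38) was at 392, 423 and 414 CPM in Control and at 446, 461 and 448 CPM with IL-33. Every IL-33 library was above every Control library, and the mean rose from 410 ± 16.3 to 452 ± 8.22 CPM (mean ± SD, n = 3 per group). This was a rise of 10.3%, or a log2 fold change of 0.14 (SE 0.029, 95% interval 0.084 to 0.20, adjusted p = 4.8e-05 in edgeR). Ccnd3 (ENSMUSG00000034165, chromosome 17 from 47505051 to 47599691, plus strand) was at 252, 242 and 252 CPM in Control and at 244, 245 and 244 CPM with IL-33. These ranges overlap, and the IL-33 libraries differed among themselves by about 1 CPM. The log2 fold change was -0.028 (95% interval -0.092 to 0.036, adjusted p = 0.576 in edgeR), so a fall or rise beyond these bounds was not seen. The third D-type cyclin gene, Ccnd1, was low, with 28, 26 and 16 counts in Control and 5, 20 and 14 with IL-33, a log2 fold change of -0.87 that did not pass (adjusted p = 0.108 in edgeR); it was picked after its values were known. Without IL-33 replicate 2, which had the highest of its IL-33 counts, Ccnd1 was called, with -1.34 (adjusted p = 0.0402 in edgeR). Of the exon bases of Ccnd1, 23.4% lie opposite exons of LTO1, which had far more counts, and of those of Ccnd3, 4.11% lie opposite exons of Bysl, which was lower with IL-33 (adjusted p = 0.0247 in edgeR). No source used here says whether reads were counted by strand, so reads of such partners cannot be told apart.

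E-type cyclins activate CDK2 at the border of G1 and S phase, and both of their genes were lower with IL-33. Ccne1 (ENSMUSG00000002068, chromosome 7 from 38097984 to 38107534, minus strand) was at 36.3, 34.7 and 32.8 CPM in Control and at 30.0, 26.5 and 28.4 CPM with IL-33. All IL-33 libraries were lower, the mean fell by 18.1% in the model, from 34.6 ± 1.76 to 28.3 ± 1.74 CPM (n = 3 per group), and the log2 fold change was -0.29 (SE 0.070, adjusted p = 0.000558 in edgeR). Ccne2 (ENSMUSG00000028212, chromosome 4 from 11191351 to 11204779, plus strand) was at 20.6, 16.9 and 18.7 CPM in Control and at 11.9, 11.8 and 12.8 CPM with IL-33. The lowest Control library, replicate 2, was still above the highest IL-33 library, replicate 3. The mean went from 18.7 ± 1.83 to 12.2 ± 0.556 CPM (n = 3 per group), a log2 fold change of -0.62 (SE 0.10, 95% interval -0.82 to -0.42, adjusted p = 2.9e-07 in edgeR). Without Control replicate 1 this log2 fold change was -0.55, which leaves 0 of the 10 genes past both limits, while 8 still had an adjusted p under 0.05. Of the exon bases of Ccne2, 17.4% lie opposite exons of Ints8, which had more counts than Ccne2 and was at 43.5 ± 1.06 and 45.2 ± 3.02 CPM (n = 3 per group, adjusted p = 0.546 in edgeR).

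**Figure D2:**
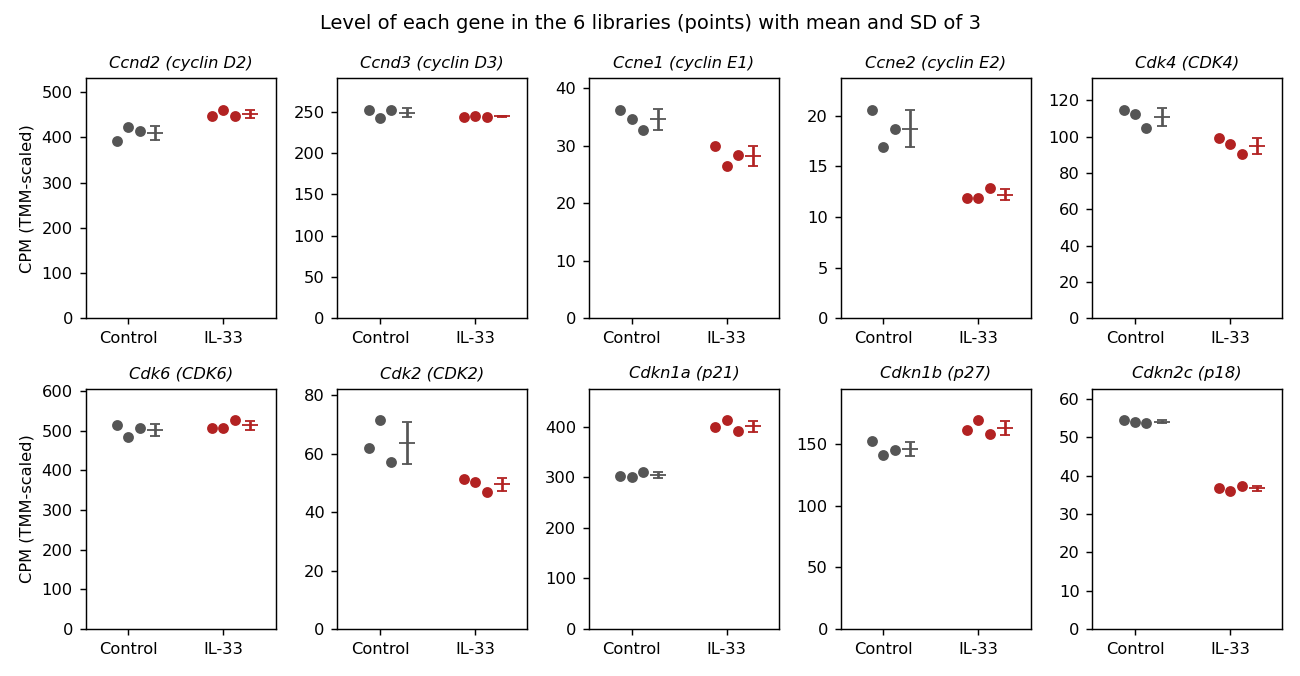
CPM of the 10 genes in the Control (gray) and IL-33 (red) libraries, each point a library, with the mean and SD of 3 beside the points and axes from 0. The groups do not overlap in 8 genes and overlap in Ccnd3 and Cdk6.

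The kinases that pair with these cyclins did not move as a block. Cdk4 (ENSMUSG00000006728, chromosome 10 from 127063534 to 127067920, plus strand), a partner of D-type cyclins, was at 115, 112 and 105 CPM in Control and at 99.1, 95.9 and 90.4 CPM with IL-33. Every IL-33 library was lower, and the level fell by 14.1%, a log2 fold change of -0.22 (SE 0.042, 95% interval -0.30 to -0.14, adjusted p = 1.05e-05 in edgeR). Of its exon bases 19.7% lie opposite exons of Tspan31, which was higher with IL-33 although its groups overlapped, at 56.8 ± 2.80 and 62.5 ± 2.51 CPM (n = 3 per group, adjusted p = 0.0358 in edgeR). Cdk6 (ENSMUSG00000040274, chromosome 5 from 3341485 to 3531008, plus strand), the other partner of D-type cyclins, was at 514, 484 and 507 CPM in Control and at 506, 508 and 526 CPM with IL-33. The groups overlapped, and the log2 fold change was 0.034 (95% interval -0.021 to 0.089, adjusted p = 0.402 in edgeR). Cdk2 (ENSMUSG00000025358, chromosome 10 from 128697939 to 128705031, minus strand), the partner of E-type cyclins, was at 62.0, 71.4 and 57.3 CPM in Control and at 51.3, 50.4 and 47.0 CPM with IL-33. Control replicate 2 was the highest, and the groups were apart also when it is set aside. The fall was 22%, with a log2 fold change of -0.36 (SE 0.059, adjusted p = 2.3e-06 in edgeR), and without any 1 library it stayed between -0.43 and -0.27.

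Among the inhibitors, the RNA of p21 and p27 rose and that of p18 fell. Cdkn1a (ENSMUSG00000023067, chromosome 17 from 29090976 to 29100727, plus strand), a target gene of p53 that is also induced by growth signals, was at 303, 300.0 and 311 CPM in Control and at 399, 413 and 392 CPM with IL-33. The spread within each group was small beside the gap between them. The mean went from 305 ± 5.54 to 401 ± 10.7 CPM (n = 3 per group), a log2 fold change of 0.40 (SE 0.030, 95% interval 0.34 to 0.46, adjusted p = 1.8e-21 in edgeR), the smallest adjusted p of the 10 genes. Cdkn1b (ENSMUSG00000003031, chromosome 6 from 134920401 to 134925513, plus strand), which is regulated by FOXO factors and by destruction of its protein, was at 153, 141 and 145 CPM in Control and at 161, 169 and 159 CPM with IL-33. The groups were apart by less than the range within either, from 153 in the highest Control to 159 in the lowest IL-33 library. Its rise of 11.4%, a log2 fold change of 0.16 (SE 0.038, 95% interval 0.081 to 0.23), had an adjusted p of 0.000594 in edgeR. Leaving out 1 library at a time moved that adjusted p up to 0.0172 at most. Cdkn2c (ENSMUSG00000028551, chromosome 4 from 109660876 to 109667189, minus strand) was at 54.4, 54.0 and 53.6 CPM in Control and at 36.8, 36.0 and 37.2 CPM with IL-33. The libraries of a group lay close together, and the mean dropped from 54.0 ± 0.401 to 36.7 ± 0.638 CPM (n = 3 per group). The fall of 32.1%, a log2 fold change of -0.56 (SE 0.058, 95% interval -0.68 to -0.44, adjusted p = 4.0e-14 in edgeR), stayed just under the limit of a 1.5-fold change.

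The genes were also compared with each other per length, as CPM per kb of the union of annotated exons. Cdkn1a was the highest in both groups, at 85.7 ± 1.56 CPM per kb in Control and 113 ± 3.01 with IL-33 (n = 3 per group). Ccnd2 came next at 43.5 ± 1.73 and 48.0 ± 0.874 CPM per kb, and was above Cdk6 at 35.9 ± 1.13 and 36.7 ± 0.793. In Control, Cdk6 overlapped with Cdk4 (34.1 ± 1.58) and Cdk4 with Cdkn1b (32.2 ± 1.28), so that these neighbors in the order did not differ beyond their spread. With IL-33, Cdkn1b at 35.8 ± 1.24 CPM per kb overlapped with Cdk6 and was apart from Cdk4 at 29.3 ± 1.35, which in turn overlapped with Ccnd3 at 27.8 ± 0.0739. Ccnd3 in Control (28.4 ± 0.646), Cdkn2c (20.1 ± 0.149 and 13.6 ± 0.237), Ccne1 (13.0 ± 0.662 and 10.6 ± 0.653), Cdk2 (10.2 ± 1.16 and 7.97 ± 0.367) and Ccne2 (5.36 ± 0.524 and 3.49 ± 0.159) followed without overlap between neighbors. Exon lengths from 2662 bp in Ccne1 to 13989 bp in Cdk6 are those of the annotation, and a cell that uses shorter transcripts would give higher values. With the length of the coding part instead, the order in Control changed, and Cdk6 stood above Ccnd2, Ccnd3 above Cdkn1b and Cdk4, and Cdk2 above Ccne1; with IL-33 the libraries of Cdk6 and Ccnd2, and of Ccnd3 and Cdkn1b, then overlapped.

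**Figure D3:**
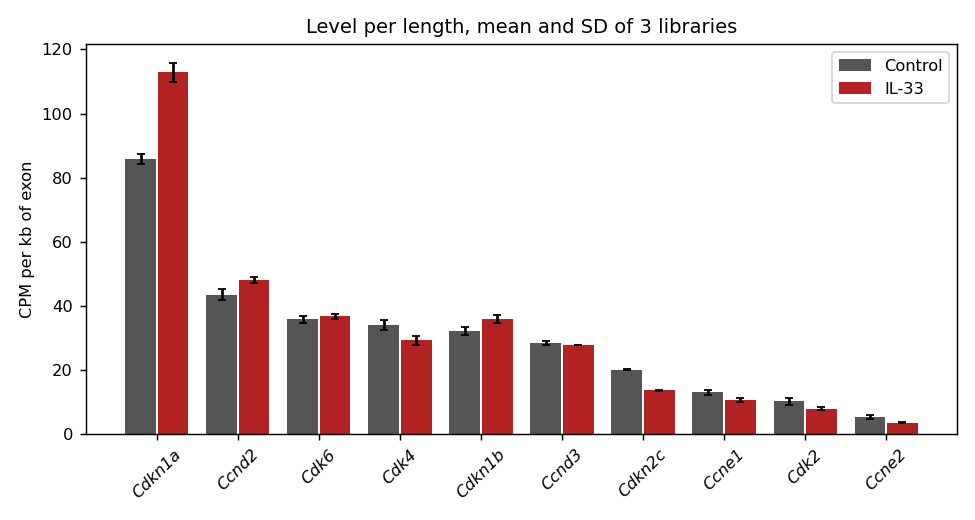
CPM per kb of exon for each gene in Control (gray) and with IL-33 (red), as bars of the mean with SD over 3 libraries, ordered by Control. Cdkn1a is highest, at 85.7 and 113, and Ccne2 lowest, at 5.36 and 3.49.

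Related genes were set against each other within each library, a ratio of counts that does not depend on the scaling. For the E-type cyclins, Ccne2 had 0.568, 0.488 and 0.570 counts per count of Ccne1 in Control and 0.397, 0.447 and 0.452 with IL-33. The ratio was lower in every IL-33 library, by 0.33 on the log2 scale (mean log2 ratio -0.89 ± 0.13 and -1.21 ± 0.10, n = 3 per group). The kinases Cdk6 and Cdk4 stood at 4.48, 4.30 and 4.82 counts of Cdk6 per count of Cdk4 in Control and at 5.11, 5.30 and 5.82 with IL-33, a log2 difference of 0.25. Cdkn1b had 0.504, 0.471 and 0.468 counts per count of Cdkn1a in Control and 0.405, 0.410 and 0.405 with IL-33, a log2 difference of -0.24, so that the RNA of p27 was lower relative to that of p21 although both genes rose. The ratio of Ccnd3 to Ccnd2 was 0.645, 0.573 and 0.609 in Control and 0.546, 0.531 and 0.545 with IL-33, a log2 difference of -0.17. In each of the 4 pairs the groups did not overlap. Such a separation was seen in 38.9% of single genes tested, and its share over pairs of genes was not counted. The two-sided exact permutation test gave p = 0.1 for each pair (0.1 also after Benjamini-Hochberg adjustment over 4 pairs), the smallest value that 3 libraries against 3 can give. The differences are thus not shown beyond the threshold by this test.

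**Figure D4:**
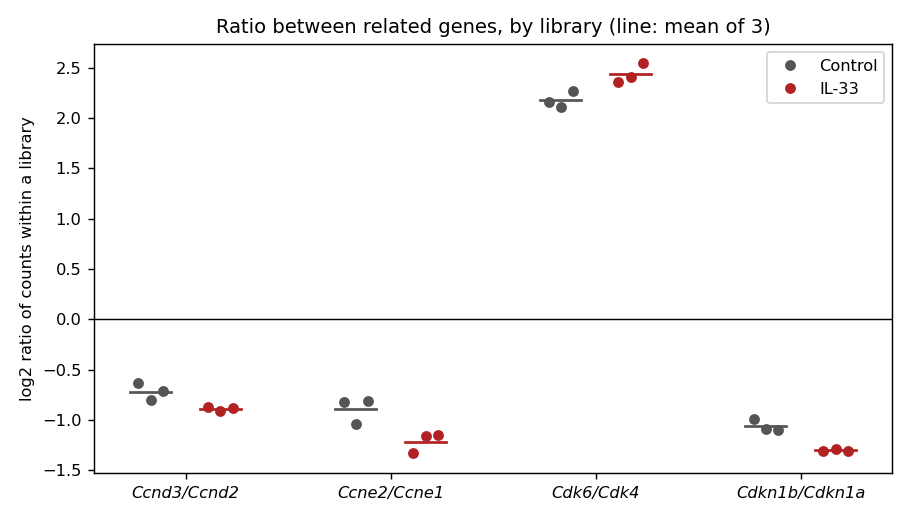
The log2 ratio of counts of 4 pairs of related genes within each library, for Control (gray) and IL-33 (red), with lines at the mean of 3. Ccnd3/Ccnd2, Ccne2/Ccne1 and Cdkn1b/Cdkn1a are lower and Cdk6/Cdk4 is higher in every IL-33 library.

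The gene lists from here on were chosen with earlier results of these data known. Of all genes tested, 13.6% were called higher and 13.9% lower. Other cyclins and inhibitors of G1 were followed in a list of 5 genes, of which 4 could be tested, 2 rose and 0 fell. The 2 were the INK4 genes Cdkn2a, from 11.4 ± 0.840 to 18.1 ± 0.697 CPM with a log2 fold change of 0.66 (adjusted p = 8.8e-08 in edgeR), and Cdkn2b, from 13.1 ± 1.06 to 20.9 ± 2.95 CPM with 0.67 (adjusted p = 2.1e-08, n = 3 per group). Without IL-33 replicate 2 the value of Cdkn2b was 0.56, short of the 1.5-fold limit, with an adjusted p of 1.3e-05 in edgeR. Both encode inhibitors of CDK4 and CDK6, Cdkn2a also the ARF protein that acts on p53, and they moved opposite to Cdkn2c. The remaining INK4 gene, Cdkn2d, was at 75.6 ± 2.03 and 78.7 ± 3.30 CPM (n = 3 per group, adjusted p = 0.372 in edgeR), and Cdkn1c (p57) had at most 3 counts in any library. The INK4 genes therefore did not move in 1 direction, and Cdkn2d and Cdkn1c, without a call, are named here with their values known.

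CDKs need an activating phosphate and the removal of an inhibiting phosphate, and p27, p21 and cyclin E are destroyed through SCF ubiquitin ligases. Of 5 genes of CDK activation 2 rose and 1 fell, beside 13.6% and 13.9% of all genes tested. Mnat1, an assembly factor of the CDK-activating kinase, rose from 18.2 ± 2.29 to 22.4 ± 0.719 CPM with a log2 fold change of 0.30 (adjusted p = 0.00499 in edgeR, n = 3 per group). The phosphatase gene Cdc25a fell, with a log2 fold change of -0.20 (adjusted p = 0.0379 in edgeR), although its groups overlapped, and the chaperone gene Cdc37, named after its value was seen, rose by 0.17. Without Control replicate 2 only 1 of these 5 genes was called, since Mnat1 (0.24, adjusted p = 0.0690 in edgeR) and Cdc25a (-0.19, adjusted p = 0.113) were lost. The call of Cdc25a was also lost in DESeq2, in limma-voom, under the replicate block and without Control replicate 1 or any IL-33 replicate, with adjusted p values from 0.0612 to 0.415. Of 6 SCF genes 1 rose and 2 fell, beside the same shares of all genes tested. Skp2, the subunit that recognizes p27, fell from 4.07 ± 1.14 to 2.51 ± 0.536 CPM, a log2 fold change of -0.70 (SE 0.21, adjusted p = 0.00705 in edgeR, n = 3 per group). This call was lost without Control replicate 1 (log2 fold change -0.44, adjusted p = 0.184 in edgeR), which had the most counts, without IL-33 replicate 3 (-0.55, adjusted p = 0.0675) and in DESeq2 (-0.70, adjusted p = 0.0545), which leaves 2 of the 6 SCF genes called. Its cofactor Cks1b had a log2 fold change of -0.33, and Fbxw7, the subunit that recognizes cyclin E, one of 0.27 (adjusted p = 1.6e-05 and 0.000435 in edgeR), both named after their values were seen.

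Downstream of the kinases, of 6 genes of pocket proteins and activating E2Fs 4 fell and 0 rose, with a median log2 fold change of -0.31. Of all genes tested, 13.9% were called lower and 13.6% higher. E2f2 fell from 40.6 ± 3.84 to 26.9 ± 1.84 CPM, a log2 fold change of -0.59 (adjusted p = 6.9e-12 in edgeR, n = 3 per group). It fell short of the 1.5-fold limit with upper-quartile factors (-0.58) and when Control replicate 1 (-0.51) or IL-33 replicate 2 (-0.56) or 3 (-0.57) was left out, and stayed called. Rbl1 (p107) fell by 0.50, E2f1 by 0.45 and Rbl2 (p130) by 0.10 on the log2 scale, while Rb1 was at 77.4 ± 2.28 and 79.3 ± 4.06 CPM (adjusted p = 0.590 in edgeR, n = 3 per group); these were named after their values were seen. Rbl2 lost its call when Control replicate 3 was left out (adjusted p = 0.0609 in edgeR), and likewise IL-33 replicate 1 (0.126) or 2 (0.0558). All 16 of the listed E2F targets of S phase entry, a list chosen with earlier results of these data known, fell. Their median was -0.47, with log2 fold changes from -0.74 to -0.29. The fold change limit was passed by Cdc6 (-0.74), Cdt1 (-0.70), Mcm2 (-0.63) and Rrm2 (-0.62), genes of replication licensing and of deoxynucleotide synthesis. All 6 genes of a list of later cyclins, the kinase Cdk1 and the proliferation marker Mki67 fell too, with a median of -0.52. Mki67, named with its values known, went from 503 ± 37.7 to 346 ± 7.21 CPM (log2 fold change -0.54, adjusted p = 1.7e-08 in edgeR, n = 3 per group). Ccna2, the cyclin that follows cyclin E on CDK2, fell from 113 ± 7.32 to 73.6 ± 1.38 CPM, a log2 fold change of -0.61 (adjusted p = 5.1e-23 in edgeR, n = 3 per group). Without Control replicate 1 the log2 fold change of Ccna2 was -0.56, short of the 1.5-fold limit. Of its exon bases 12.5% lie opposite exons of Exosc9, which had fewer counts. The summed level of the S phase list was 2067 to 2238 CPM in Control and 1551 to 1591 CPM with IL-33. The falls of Ccne1, Ccne2, Cdk2 and Cdkn2c thus came with lower levels of cell cycle genes in the same libraries. By flow cytometry of Ki67, the paper reports a higher proliferation rate of bead-stimulated DNT cells with IL-33, at doses including the present one. It also reports higher Ki67 and BrdU staining of DNT cells transferred into mice given IL-33. The fall of Mki67 RNA went the other way, and the reason was not tested. Whether fewer cells were in cycle or each had less RNA of these genes was not tested in these libraries.

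The known inputs to the Cip/Kip genes were covered by a list for each. Of all genes tested, 13.6% were called higher and 13.9% lower. Of 15 p53 target genes 6 rose and 0 fell, with a median of 0.12. Cdkn1a had the highest log2 fold change of the list, followed by Sesn1 with 0.35, from 28.2 ± 1.60 to 35.9 ± 0.476 CPM (adjusted p = 1.8e-05 in edgeR, n = 3 per group). Mdm2, named after its value was seen, rose from 190 ± 0.661 to 239 ± 5.46 CPM with 0.33 (adjusted p = 7.1e-15 in edgeR), and 9 of the 15 did not pass, among them Bax at 0.048 and Phlda3 at -0.049 (adjusted p = 0.624 and 0.699 in edgeR), likewise picked with their values known. Of 10 FOXO factors and target genes 7 rose, 1 fell and 2 did not pass, with a median of 0.28. Ccr7 rose from 4.12 ± 0.360 to 9.05 ± 0.635 CPM with a log2 fold change of 1.14, and Klf2 from 2.34 ± 0.384 to 3.87 ± 0.427 CPM with 0.72 (adjusted p = 3.9e-10 and 0.00476 in edgeR, n = 3 per group). Il7r, the gene of the IL-7 receptor, fell from 95.9 ± 3.28 to 60.5 ± 3.40 CPM with -0.66 (adjusted p = 1.1e-24), against the direction of the others. Foxo1 and Foxo3 themselves rose by 0.36 and 0.32 on the log2 scale, and are named with their values known. Both lists hold a gene of the 10 (Cdkn1a and Cdkn1b), and activity of p53 or FOXO was not measured.

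**Figure D5:**
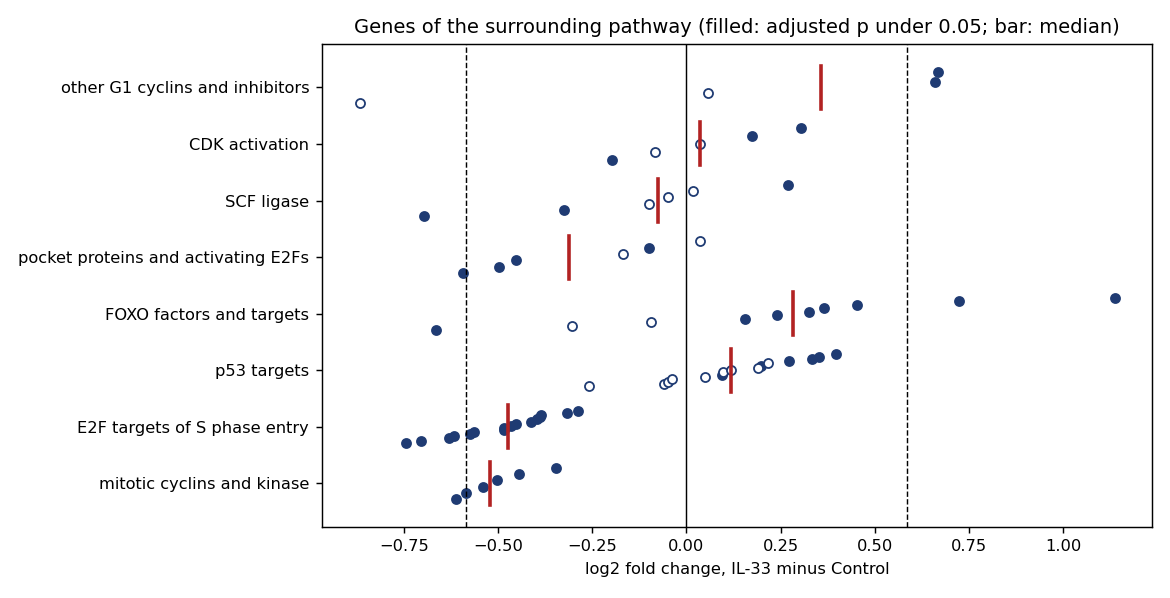
The log2 fold change, IL-33 minus Control, of each tested gene in the 8 lists around the G1 genes, filled where the adjusted p was under 0.05, with a red bar at the median of the list. The 16 E2F targets and the 6 genes of the list of mitotic cyclins, kinase and Mki67 lie left of 0, and dashed lines mark a 1.5-fold change in either direction.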

How the data were processed

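DNT cells of the Control and IL-33 groups were compared in 3 libraries each, grouped by sample title. The table deposited by the authors holds 1 raw count per gene and library, not normalized. The submitters' processing notes name Bowtie 0.12.2 and build mm8; which program counted the reads, with which annotation and whether by strand, is not given in the sources used here. A deposited column of signal, under the name DESeq2 gives to the mean of scaled counts, was not used. Symbols matched 26072 of 26128 identifiers. Positions and lengths are from GENCODE M21 (GRCm38), and promoter sequences from RefSeq (GRCm38.p6). Labels and paper name different library kits (TruSeq and NEBNext Ultra).

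Genes were filtered with filterByExpr (minimum count 10, minimum total 15), scaled by TMM and tested with edgeR 4.0.16 (robust glmQLFit and glmQLFTest, two-sided, no covariates, R 4.3.3). The limits of an adjusted p of 0.05 and a 1.5-fold change are those of the study. Ratios between genes had 0.5 counts added. Alternatives used DESeq2 1.42.0, limma 3.58.1 (voom), other scaling and filters, a replicate block, glmTreat and each library left out. On simulated data with 200 genes changed by a fold of 2, edgeR recovered 92.5% with 16 false calls among 14434 genes tested. The 10 genes changed by at most 1.54-fold (Ccne2), and recovery of changes of that size was not simulated. Far fewer genes were changed in the simulation than were called in the data (1999 higher and 2037 lower).

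The genes and lists were chosen with earlier results of these data known. Named were all 10 genes, the genes of each list past both limits, or else the 2 called genes with the greatest change, and any others as marked. The E2F letters were shortened from an 8-letter form after a first search. A further list of cell type markers is not reported here.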

Additional observations from a re-analysis of the deposited data

How the results depend on the processing

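In 13 other fits of each gene (DESeq2, limma-voom, edgeR with DESeq2 size factors or upper-quartile factors, no filter or a stricter filter, a replicate block, and 1 library left out at a time), none of the 10 genes changed sign or crossed the adjusted p of 0.05. The log2 fold change of Ccne2 ran from -0.69 to -0.55 over these fits. Under the replicate block 666 genes were past both limits against 714 without it and no call of the 10 genes changed. Deviations of same-numbered libraries from their group means had r = 0.0116, 0.00317 and 0.0107, and those of other pairs had r from -0.0138 to 0.00287. The same-numbered values were the highest but all were small. With 3 libraries per group they cannot decide whether the numbers pair the libraries. With 1 library left out the number of the 10 genes past both limits was 0 to 1 and the number of CDK activation genes called was 1 to 3. A test against the fold change limit itself (edgeR's glmTreat) left 113 genes and called 0 of the 10, 0 with an unadjusted p under 0.05, whether higher or lower. Its adjusted p was 1 for each at the same log2 fold changes, Ccnd2 0.14, Ccne1 -0.29, Ccne2 -0.62, Cdk4 -0.22, Cdk2 -0.36, Cdkn1a 0.40, Cdkn1b 0.16 and Cdkn2c -0.56, since that test asks for a change beyond 1.5-fold; the fits without it, DESeq2 and limma-voom among them, called 8. It called 1 FOXO gene and 0 genes in the other 7 lists, where 3 S phase genes had an unadjusted p under 0.05. With coding length the order in Control had Cdk6 at rank 2, Ccnd2 at 3, Ccnd3 at 4, Cdk4 at 6, Cdk2 at 8 and Ccne1 at 9. The differences in log2 ratio moved by less than 1 SD, taken as the root of the mean variance of both groups, with 2 counts added and with any 1 library left out. Of the list genes named, Ccnd1, Mnat1, Cdc25a, Skp2, Rbl2 and E2f3 changed their call in at least 1 of these fits, and Cdkn2b, E2f2 and Ccna2 fell short of the 1.5-fold limit in at least 1.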
